A study of Homo sapiens with 40 samples.

Results

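Chromatin accessibility was compared between BT474 cells treated with heregulin (HRG) for 1 h and BT474 cells that received the water vehicle (Con) for the same time. BT474 is an established breast ductal carcinoma line that overexpresses HER2 and responds to the anti-HER2 antibody trastuzumab. Cells of both groups were serum starved before treatment, so the vehicle cells were starved cells given fresh starvation medium. Open chromatin was mapped by ATAC-seq, an assay that reads where a transposase can cut, and the data of a library were the peaks called in it. The comparison used the 2 HRG and the 2 Con lists of the 40 in the series, which also hold EGF-treated cells, later times of 12 and 24 h, an untreated baseline at 0 h and the trastuzumab-resistant clone BT474R. The 4 lists were merged wherever peaks overlapped by 1 bp or more on chromosomes 1 to 22 and X, which gave 54672 regions. A region was called gained when it had a peak in 2 of 2 HRG lists and 0 of 2 Con lists, and lost in the reverse case. Where all 4 lists had a peak, the rank percentile of its score within its own list was compared, with 100 for the highest-scoring peak of a list.

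HRG, also called neuregulin, is a growth factor that binds HER3 and HER4 and pairs them with HER2, which has no ligand of its own. The receptor pairs signal through the RAS/MAPK and PI3K/AKT cascades. Within an hour, MAPK signaling switches on immediate-early genes such as FOS, JUN and the EGR family from factors already present in the cell. FOS and JUN proteins form the dimeric transcription factor AP-1, which binds the sequence TGACTCA and often acts at distal enhancers.

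Example sequences of gained and lost regions are shown first. The gained ones were chosen for a TGACTCA match and the lost ones by rank, so these sequences cannot measure a contrast. Each is the window of 100 bp on each side of the summit of the highest-ranked peak in the region (GRCh38), with every TGACTCA match on either strand in capitals. BORCS5 and PMEPA1 name the AP-1-bearing windows among the 10 gained regions of highest rank. BHLHE40, ZFP36L2, ETS2 and IER3 name gained regions beside genes of the lists described further on, chosen after their values were seen because each had a match and a peak in 4 of 4 later HRG lists and 0 of 4 later Con lists. RAD51B and FOXP4 name the 2 lost regions of highest rank, which held no match. Among the 10 lost regions of highest rank, that of SYK held 1 match.
BORCS5, chr12:12398414-12398614, plus strand: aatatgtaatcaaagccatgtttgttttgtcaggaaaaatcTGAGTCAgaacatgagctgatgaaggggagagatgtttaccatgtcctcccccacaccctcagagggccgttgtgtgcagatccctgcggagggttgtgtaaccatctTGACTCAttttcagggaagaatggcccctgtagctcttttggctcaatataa
PMEPA1, chr20:57701175-57701375, plus strand: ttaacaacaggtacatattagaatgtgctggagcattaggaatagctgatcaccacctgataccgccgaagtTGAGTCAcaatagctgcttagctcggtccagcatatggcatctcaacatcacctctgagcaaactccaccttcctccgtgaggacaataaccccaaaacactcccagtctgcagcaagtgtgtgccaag
BHLHE40, chr3:5023375-5023575, plus strand: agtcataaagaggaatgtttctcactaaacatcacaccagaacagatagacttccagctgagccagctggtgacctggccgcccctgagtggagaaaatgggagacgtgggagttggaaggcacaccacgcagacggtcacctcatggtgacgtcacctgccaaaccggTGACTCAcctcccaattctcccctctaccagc
ZFP36L2, chr2:43200013-43200213, plus strand: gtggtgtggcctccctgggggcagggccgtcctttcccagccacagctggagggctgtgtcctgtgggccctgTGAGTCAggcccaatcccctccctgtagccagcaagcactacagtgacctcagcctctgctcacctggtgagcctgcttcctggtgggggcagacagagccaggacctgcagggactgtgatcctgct
ETS2, chr21:38797621-38797821, plus strand: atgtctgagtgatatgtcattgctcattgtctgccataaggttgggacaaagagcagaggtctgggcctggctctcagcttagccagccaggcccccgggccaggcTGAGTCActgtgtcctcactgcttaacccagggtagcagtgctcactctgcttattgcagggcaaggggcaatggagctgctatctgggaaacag
IER3, chr6:30769641-30769841, plus strand: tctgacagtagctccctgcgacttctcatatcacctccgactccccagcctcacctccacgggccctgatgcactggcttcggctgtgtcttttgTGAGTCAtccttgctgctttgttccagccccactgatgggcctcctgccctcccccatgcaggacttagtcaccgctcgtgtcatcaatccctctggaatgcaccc
RAD51B, chr14:67940889-67941089, plus strand: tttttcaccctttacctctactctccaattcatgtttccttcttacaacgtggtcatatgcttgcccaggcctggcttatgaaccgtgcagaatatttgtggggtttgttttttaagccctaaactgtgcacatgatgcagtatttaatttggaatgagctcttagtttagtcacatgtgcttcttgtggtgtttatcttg
FOXP4, chr6:41519897-41520097, plus strand: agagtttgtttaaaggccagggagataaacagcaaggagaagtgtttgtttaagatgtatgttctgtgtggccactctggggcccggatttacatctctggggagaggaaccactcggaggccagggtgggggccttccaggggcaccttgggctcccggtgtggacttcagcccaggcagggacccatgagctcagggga

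The 4 lists were of similar size. The HRG lists held 47571 and 49579 peaks and the Con lists 48788 and 49195, a difference of −416.5 peaks (HRG minus Con) that was smaller than the SD of 1420 between the HRG lists (exact permutation test, two-sided, p = 1.0). With 2 lists against 2 the smallest p this test allows is 0.333. Promoter peaks, with a summit within 1 kb of an annotated transcription start site, made up 37.8% ± 0.693 (SD, n = 2) of the HRG peaks and 37.4% ± 0.102 (SD, n = 2) of the Con peaks (exact permutation test, p = 1.0). Peaks with an AP-1 match in the window made up 13.1% and 13.2% of the HRG lists against 10.6% and 10.4% of the Con lists. The AP-1 share was thus higher in both HRG lists than in either Con list, by 2.63 percentage points (exact permutation test, p = 0.333, the smallest possible). It lay between 12.7% and 13.2% in the 6 HRG lists of BT474 at all times, between 11.6% and 12.7% in the 6 EGF lists, between 9.53% and 10.6% in the 6 Con lists, and at 10.1% and 9.99% at baseline. Of 15 promoters of luminal and HER2-amplicon markers, 14 had a peak in all 4 lists, ERBB2, GRB7 and STARD3 among them at percentile 100 in each. KRT5, KRT14 and KRT17 of the basal list, PTPRC and CD3E of the immune list and PECAM1 of the endothelial list had none. In all, 3 of 6 basal, 1 of 8 immune, 1 of 7 fibroblast and 3 of 5 endothelial marker promoters had a peak in all 4 lists, and the fibroblast markers COL3A1, PDGFRB and FAP had a peak in 1 HRG list each. No read totals came with the peaks, and the depth of each library was therefore unknown. A region is said to have no peak where none was listed.

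Of the 54672 regions, 41079 had a peak in all 4 lists. HRG gained 1845 regions, 3.37% of all, and lost 1828, 3.34% of all. The remainder were split within a group, with a peak in only 1 of its 2 lists. Gained and lost regions were therefore as numerous as each other, and no more frequent than the 2082 regions with a peak in 1 HRG list alone and the 2613 with a peak in 1 Con list alone. The gained count was 3324 without HRG replicate 1, and the lost count was 3448 without HRG replicate 2, 3203 without Con replicate 1 and 3066 without Con replicate 2, since fewer lists then have to match.

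The content of both sets differed. An AP-1 match lay in 37.6% of gained regions and in 2.63% of lost regions, against 12.3% of all merged regions. At least 2 matches were found in 6.29% of gained and 1.1% of all regions. TEAD matches (GGAATGT), the sites of the Hippo pathway factors that often act beside AP-1, were found in 9.81% of gained, 2.68% of lost and 4.79% of all regions. CArG matches, the sites of serum response factor, were found in 2.66% of gained, 0.821% of lost and 0.997% of all regions. The ETS (CCGGAAG) and KLF/SP (GGGGCGGGG) matches that mark many promoters went the other way in both sets, at 1.46% and 0.976% of gained and 1.04% each of lost regions against 4.63% and 6.15% of all. FOXA matches (TGTTTAC), the sites of the luminal pioneer factor FOXA1, were found in 11.4% of lost, 9.27% of gained and 7.87% of all regions, and GATA matches (AGATAAG) in 3.61%, 2.55% and 2.15%. Shares were also alike in gained and lost regions for AP-2 (GCCNNNGGC), at 12.8% and 12.2%, and for RUNX (TGTGGTT), at 5.37% and 5.14%. CRE matches (TGACGTCA), which AP-1 and CREB family factors bind, were found in 0.596% of gained and 0.77% of all regions and in 0 of the 1828 lost regions. Motifs were searched on both strands. A match says only that the letters are present, and the sets were chosen by peaks, so these shares are given as a description with no test.

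**Figure D1:**
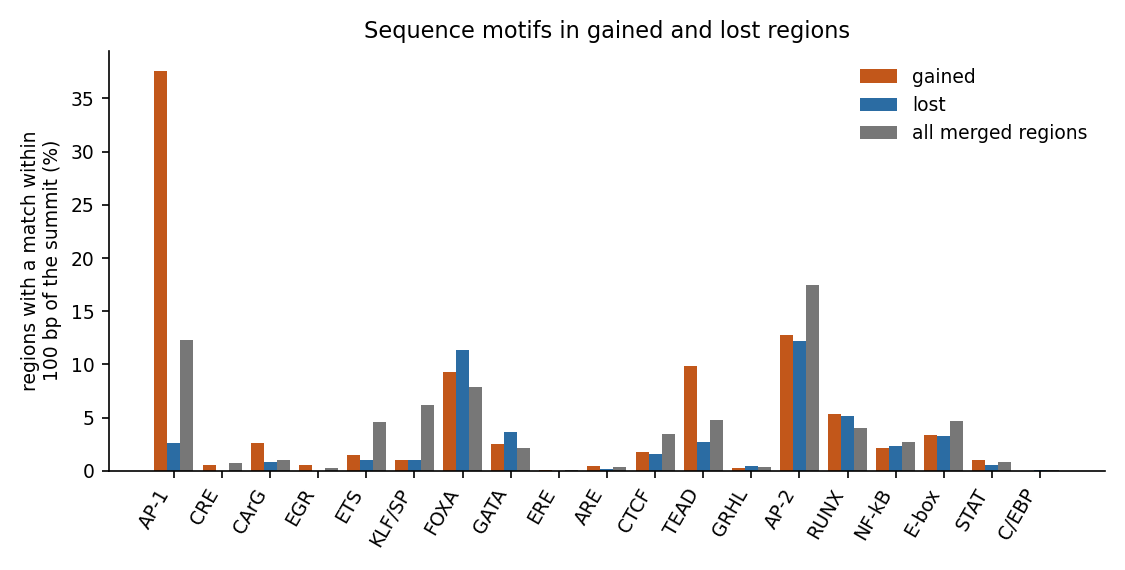
Percentage of regions (vertical axis) with a match to each of 19 motifs (horizontal axis) within 100 bp of the summit, for gained regions, lost regions and all merged regions. AP-1 stands at 37.6% in gained and 2.63% in lost regions.

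The AP-1 matches sat at the summits. In gained regions there were 177 matches per 1000 regions in the 50 bp before the summit and 152 in the 50 bp after it, falling to 7.59 at 450 to 500 bp before it. Lost regions had 8.75 and 4.38 matches in these central bins, about the level of their own flanks. Over all regions the central bins had 46.7 and 45.6. Gained regions were mostly distal and weak: 14.3% were promoter regions, against 34.5% of all, the median width was 316 bp against 529.5 bp, and the median rank percentile was 14.1 against 42.3. Lost regions resembled them in each of these, with 12.9% promoters, a width of 357 bp and a percentile of 12.9, but not in AP-1. When the gained regions were put in 4 classes of nearly equal size by rank, a match was found in 26.6% of the lowest class and in 39.5%, 42.3% and 41.9% of the next, whereas the 4 classes of lost regions ranged from 2.19% to 3.06%.

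**Figure D2:**
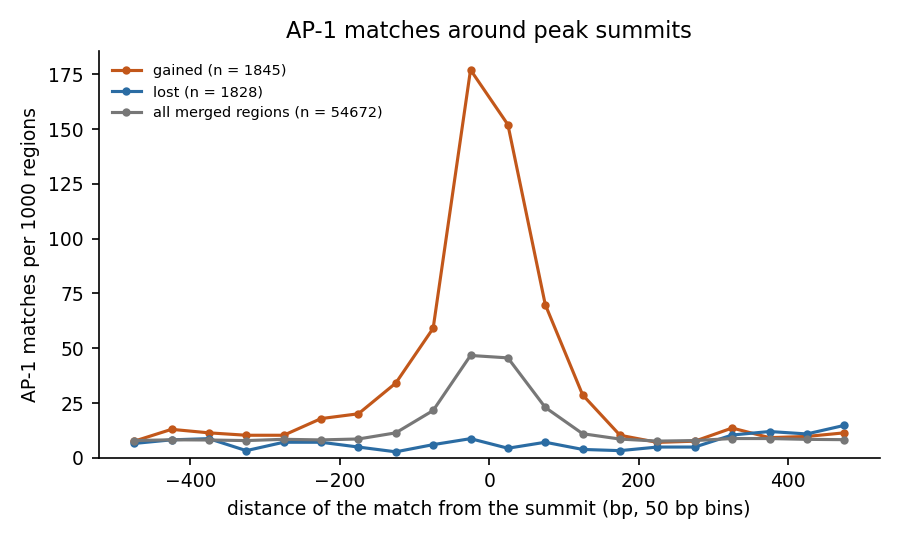
AP-1 matches per 1000 regions (vertical axis) by distance from the summit in 50 bp bins (horizontal axis) for gained, lost and all merged regions. Gained regions reach 177 matches per 1000 in the bin before the summit, and lost regions 8.75.

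The 10 gained regions of highest rank were unlike the bulk. Of these, 9 were wider than 1 kb, only the BORCS5 and PMEPA1 regions had an AP-1 match, and 6 lay just past the 3′ end of a gene. The first, chr12:52059522-52061335, was 0.844 kb past the end of NR4A1, an immediate-early nuclear receptor gene, and reached percentiles 84.0 and 86.3 in the HRG lists. It is listed under ATG101, the protein-coding gene with the nearest start, and lies within 1 kb of an annotated transcript start. It had a peak in 1 of 2 baseline lists and 4 of 4 later Con lists, but in 0 of 4 later HRG lists. The CCN2 region, chr6:131945993-131947495, at 69.5 and 78.0, was 1.15 kb past the end of CCN2, a secreted matrix protein and a target of serum response factor and YAP. The FLNA region, chrX:154347047-154348483, at 65.9 and 66.7, was 1.15 kb past the end of FLNA, which encodes the actin cross-linker filamin A. EGR3, a zinc finger factor of the immediate-early class, had its region 1.8 kb past its end at 63.4 and 62.2, and TRIB1, a pseudokinase that binds MEK1, had one 2.61 kb past its end at 43.0 and 80.2. The EPPK1 region at 70.0 and 82.1 and the MUS81 region at 66.1 and 76.1 lay in exons. Apart from the NR4A1 region, the 10 had no peak at baseline, and none of the 8 without an AP-1 match had a peak in any HRG list of 12 or 24 h.

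This pattern was then counted over all gained regions, with limits set after these values were seen. Of the 31 gained regions at least 1 kb wide, 16 (51.6%) had a summit within 5 kb past the 3′ end of a protein-coding gene, against 13.5% of all 10981 regions of that width. The 31 include 9 of the 10 regions that prompted the count, and without those the share was 10 of 22 (45.5%). Regions that lay past a 3′ end and were not promoter regions made up 11 of the 31 (35.5%), against 2.91% of all regions of that width. The 16 included regions past the ends of NAB2, a repressor that binds EGR factors, MYH9 and ACTN4, which encode myosin and actinin chains, ZYX, HMGCS1, KRT7 and SLC38A2. Among these 31 regions 3.23% had an AP-1 match and 64.5% had a peak in 2 of 2 EGF lists at 1 h. No peak was listed at baseline for 90.3%, and none in the 4 later HRG lists for 64.5%. Over all 10981 regions of that width these shares were, in the same order, 6.37%, 99.6%, 0.392% and 0.209%. Of the 1814 narrower gained regions, 38.1% had an AP-1 match, 4.96% lay past a 3′ end and 23.6% had no peak in the later HRG lists. Over all narrower regions these shares were 13.8%, 7.11% and 5.85%.

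In the regions with a peak in all 4 lists, limma (variance trend, robust) found a higher rank percentile after HRG in 1504 (3.66%) and a lower one in 1490 (3.63%), at a Benjamini-Hochberg adjusted p below 0.05. The median difference (HRG minus Con) was 16.93 percentile points in the regions that rose and −14.14 in those that fell, against −0.14 over all 41079, with a median SD within groups of 2.42. AP-1 matches were found in 43.8% of the regions that rose and 3.02% of those that fell, against 11.4% of all 41079, and CArG matches in 4.06% and 0.47% against 0.874%. These calls rest on few libraries. Without the variance trend and the robust option limma called 0 regions (9650 at an unadjusted p below 0.05). Only the variance estimate changes in that fit, so the differences stay the same. Fewer regions were called with each library left out. All 2994 called regions kept their direction there, but they had been chosen for their differences in the same libraries.

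The largest increase was in an intron 20.8 kb from the start of TMEM45B, at percentiles 72.4 and 69.0 after HRG and 3.24 and 3.58 in Con, a difference of 67.29 ± 3.9 (SE, limma adjusted p = 0.00607). The next, in an intron near PAWR, a pro-apoptotic regulator, stood at 77.0 and 79.5 against 16.0 and 11.7 (difference 64.41, limma adjusted p = 0.00579). A region 7.31 kb from the start of PLK2, a serum-inducible polo-like kinase, stood at 85.0 and 84.9 against 24.7 and 21.3 (difference 61.95, limma adjusted p = 0.00528). Regions of TP53INP2, MAPKAP1, which encodes the mTORC2 subunit SIN1, AMELX, STK38L, FAM133B, TEX35 and JADE2 completed the 10 largest, with differences from 56.31 to 63.4. The largest decrease was 96.1 kb from the start of SKOR1, at 8.19 and 24.6 after HRG and 72.3 and 67.3 in Con, a difference of −53.45 ± 6.07 (SE, limma adjusted p = 0.0169). In an intron of CAPN9, a calpain protease, the values were 25.6 and 23.9 against 75.6 and 70.8 (difference −48.38, limma adjusted p = 0.00832), and in an intron of ECE1, the endothelin-converting enzyme, 25.2 and 30.1 against 74.3 and 73.0 (difference −45.99, limma adjusted p = 0.00845). None of the 10 largest decreases had an AP-1 match, against 3 of the 10 largest increases.

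**Figure D3:**
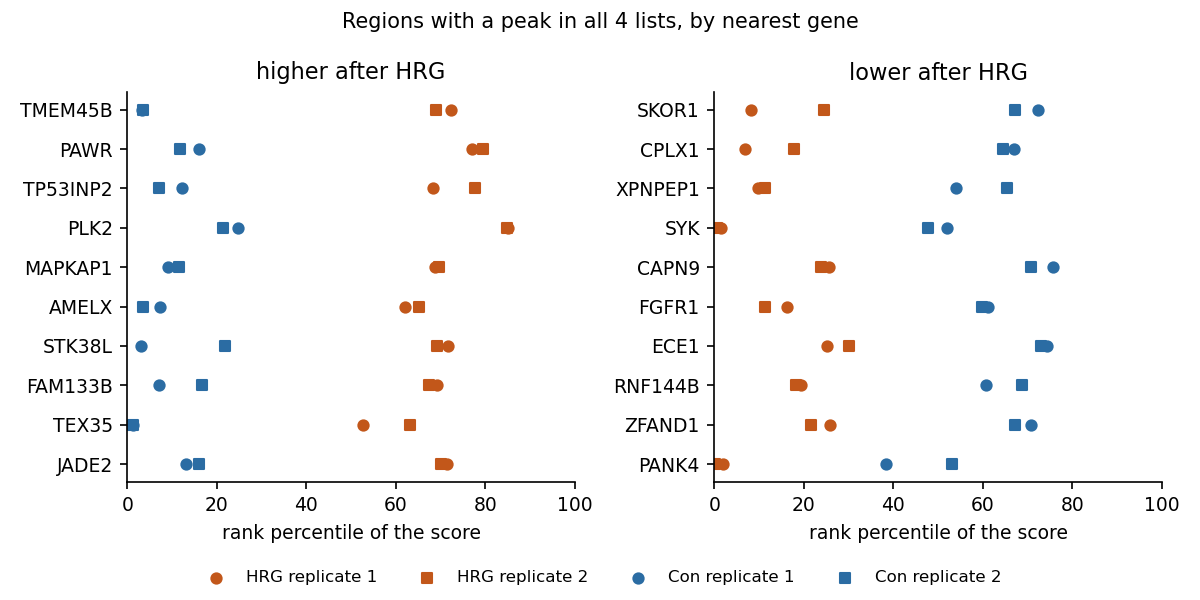
Rank percentile of the score (horizontal axis, 100 is the highest) in the 2 HRG and 2 Con lists for the 10 regions with the largest increase (left) and the 10 with the largest decrease (right), named by the gene with the nearest start. HRG and Con points are apart in every row, for example at 72.4 and 69.0 against 3.24 and 3.58 for TMEM45B.

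The promoters of the immediate-early factors were open in every list. FOS, FOSB, FOSL1, FOSL2, JUN, JUNB, JUND, ATF3, EGR1, EGR2, EGR3, IER2, IER3 and MYC each had a promoter peak in all 20 BT474 lists. The EGR3 promoter region was the exception in rank, at 97.7 and 97.8 after HRG and 72.2 and 72.3 in Con, a difference of 25.53 ± 0.75 (SE, limma adjusted p = 0.00372). ATF3, a stress-induced partner of JUN, stood at 98.0 and 99.2 against 95.8 and 96.7 (difference 2.34, limma adjusted p = 0.0503). IER2 stood at 98.8 and 98.9 against 97.9 and 97.6 (difference 1.13, limma adjusted p = 0.0596). EGR2 stood at 93.7 and 98.3 against 90.7 and 88.9 (difference 6.22, limma adjusted p = 0.145). No promoter of these genes other than that of EGR3 passed the test. The FOS promoter region stood at 82.8 and 95.3 after HRG against 84.1 and 79.6, which overlap (limma adjusted p = 0.478). JUN, JUNB, EGR1, MYC and FOSL2 were above percentile 97 in all 4 lists, where the scale leaves little room for an increase.

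Gene lists were compared through the 43142 regions whose nearest protein-coding start lay within 100 kb, of which 3.02% were gained and 2.75% lost, and 2.62% rose and 2.43% fell by the rank test. Of the 179 regions beside the 30 immediate-early factors, 11 (6.15%) were gained and 3 (1.68%) lost, and 13 rose and 3 fell. KLF6, a serum-inducible zinc finger factor, had 4 gained and 3 rising regions of 15. The gained ATF3 region, 3.52 kb before its start, stood at 46.2 and 43.6, and that of BHLHE40, a repressor of the clock, at 42.5 and 43.6. Of the 203 regions beside MAPK and receptor feedback genes, 13 (6.4%) were gained, 3 (1.48%) lost, 17 rose and 4 fell. DUSP4, a nuclear ERK phosphatase, and ZFP36L2, which destabilizes mRNA, had 3 gained regions each, and SPRED2, an inhibitor of RAF activation, had 4 of 16 regions that rose. The DUSP1 region, at 16.6 and 39.8 after HRG, and the ERRFI1 region, at 23.9 and 26.2 with 2 AP-1 matches, belong to a MAP kinase phosphatase and to an inhibitor of the ERBB kinases. The DUSP1 region had a peak in 0 of 4 later HRG and 3 of 4 later Con lists, and the ERRFI1 region in 0 of 4 of each. The gained DUSP4 region of highest rank had a peak in 2 of 2 baseline lists and 4 of 4 later lists of each group. The ATF3 and BHLHE40 regions had 2 and 4 of 4 in later HRG and 0 of 4 in later Con lists.

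Cytoskeleton, adhesion and motility genes had the highest share of rising regions. Of their 201 regions, 13 (6.47%) were gained, 2 (0.995%) lost, 27 (13.4%) rose and 7 fell. Beside ACTN4, 4 of 14 regions rose, beside FLNA 3 of 7 rose and 2 were gained, and beside TPM4, a tropomyosin, 3 of 5 rose and 1 was gained. VCL, which encodes the focal adhesion protein vinculin, had 2 gained regions and 1 that rose of 6, and ZYX, which encodes zyxin, had 1 gained region at 39.1 and 48.4. Of 113 regions beside invasion and matrix genes, 6 (5.31%) were gained, 1 (0.885%) was lost and 7 (6.19%) rose. ITGA2, an integrin collagen receptor, had a gained region 1.43 kb before its start at 53.3 and 58.0. The integrin gene ITGAV had one with 2 AP-1 matches at 16.6 and 25.4, and the laminin gene LAMA3 one with 1 match at 18.6 and 21.4.

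Among ERBB receptors and their ligands, 4 of 38 regions (10.5%) were gained, 1 was lost, 3 rose and 1 fell. A gained region in an intron of ERBB2, 3.75 kb from its start, stood at 23.0 and 31.1, beside promoter peaks at percentile 100 in all 4 lists. This intron region had a peak in 0 of 2 baseline lists, 4 of 4 later HRG lists and 3 of 4 later Con lists. NRG2, a neuregulin gene, had 2 gained regions of 4, and BTC, the gene of the ligand betacellulin, had 1 of 3. EGFR and the ligand genes EREG and EPGN had 1 rising region each, and ERBB4 had 1 that fell. Luminal lineage and steroid receptor genes went the other way by presence, with 4 of 224 regions gained (1.79%) and 10 lost (4.46%), while 10 rose and 8 fell. GATA3, a luminal master factor, lost 3 of 8 regions, of which the one of highest rank stood at 23.6 and 11.3 in Con. SPDEF, a luminal ETS factor, lost 2 of 15, of which the higher stood at 44.6 and 36.6, and FOXA1 lost 1 of 7. This GATA3 region had a peak in 1 of 2 baseline lists and in 0 of 4 later lists of each group. The SPDEF region had a peak in 4 of 4 later lists of each group. The FOXA1 region had one in 3 of 4 later HRG and 4 of 4 later Con lists. Of the regions of CDH1, the E-cadherin gene, 4 of 16 rose and 1 was lost.

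The signaling cascades themselves were near the background. PI3K, AKT and mTOR genes had 3 of 92 regions gained (3.26%) and 4 lost (4.35%), with 2 risen and 2 fallen, and RAS and MAPK genes had 2 of 95 gained (2.11%) and 3 lost (3.16%), with 3 risen and 2 fallen. Glycolysis and hypoxia genes had 3 of 113 gained and 3 lost (2.65% each), with 5 risen and 5 fallen, of which 4 that fell were beside NDRG1, a hypoxia-induced gene. Cell cycle genes had 2 of 70 gained and 2 lost (2.86% each), with 1 risen and 1 fallen. These counts describe the lists, and regions beside 1 gene share their surroundings and are not independent.

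**Figure D4:**
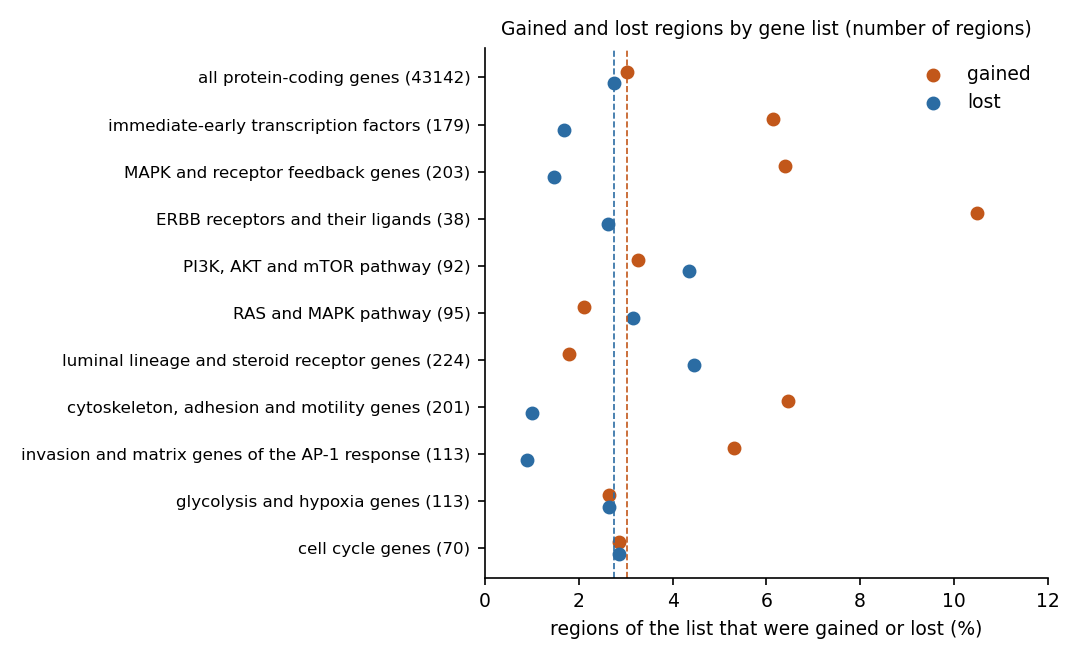
Percentage of the regions of each gene list (horizontal axis; number of regions in parentheses) that were gained or lost after HRG, with dashed lines at the shares over all protein-coding genes, 3.02% and 2.75%. Cytoskeleton genes stand at 6.47% gained and 0.995% lost, and luminal genes at 1.79% and 4.46%.

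By number of regions, BCAS1, a gene often amplified in breast cancer, led the gained side with 5 of 22, followed by KLF6 with 4 of 15. KRT78, ATXN1, ZFP36L2, AMMECR1L, COBL, YWHAZ, CTBP2 and DUSP4 had 3 each. The gained KRT78 regions lay between percentiles 22.4 and 78.0, and those of BCAS1 did not pass 27.1. The lost side was led by DIO2, NCOA1, RXRA, ZMIZ1, TSPAN11, PRMT8, CERK, GATA3 and a gene known only as ENSG00000258989, with 3 regions each. NCOA1 is a steroid receptor coactivator and RXRA a retinoid receptor, and RXRA also had 3 regions that fell by the rank test. The 10 lost regions of highest rank were led by RAD51B, chr14:67940866-67942072, at 55.6 and 64.4 in Con, and FOXP4, chr6:41519342-41520416, at 63.5 and 55.9. Each of the 10 had a peak in 2 of 2 baseline lists and 4 of 4 later Con lists. All but the CDH18 region, at 2 of 4, also had a peak in 4 of 4 later HRG lists.

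The 36 lists that played no part in choosing the regions show how far each set recurred. At baseline, 19.5% and 12.4% of the gained regions and 83.3% and 72.0% of the lost regions had a peak. The same lists held 87.3% and 83.9% of all 54672 regions. Gained regions had been chosen for no peak in starved Con cells. Their low baseline share alone therefore cannot decide whether they departed from the starting state. Gained regions had a peak in 63.6% and 62.6% of cases in the HRG lists of 12 h and in 49.9% and 51.2% at 24 h. The Con lists held 16.2% and 15.7% of them at 12 h and 24.7% and 19.0% at 24 h. The groups did not overlap at either time, with means of 56.8% ± 7.29 (SD, n = 4) and 18.9% ± 4.13 (SD, n = 4) and a difference of 37.9 percentage points (exact permutation test within times, two-sided, p = 0.0556, the smallest possible, adjusted p = 0.089 over 8 tests). The share of all 54672 regions with a peak was 90.5% and 90.8% in the HRG lists of 12 h against 85.9% and 85.8% in Con, and 87.8% and 87.2% against 88.7% and 87.1% at 24 h. Gained regions with an AP-1 match were held more often, at 78.2% and 77.8% in HRG at 12 h and 63.5% and 66.5% at 24 h, than those without, at 54.9% and 53.5% and at 41.7% and 42.0%.

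Most lost regions had a peak in the later HRG lists, but a smaller share of them than of all regions. The later HRG lists held 71.3% and 74.1% of them at 12 h and 66.5% and 72.5% at 24 h, against 75.5% and 77.7% and 82.5% and 80.1% in Con. The HRG values were lower at both times with no overlap, by a difference of −7.82 percentage points (exact permutation test within times, p = 0.0556, the smallest possible, adjusted p = 0.089). The difference was −16.7 when each list was reduced to the same number of highest-scoring peaks. That setting lowered the difference of the gained regions to 30.1. Region by region, 949 of the 1845 gained regions (51.4%) had a peak in at least 3 of the 4 later HRG lists, and 49.4% of these had an AP-1 match. In 548 of them no later Con list had a peak, and 60.8% of these had a match. A further 448 gained regions (24.3%) had a peak in none of the 4, and 19.9% of these had a match. Of the 1828 lost regions, 1213 (66.4%) had a peak in at least 3 later HRG lists. Another 80 (4.38%) had none there but a peak in at least 3 later Con lists. Over all 54672 regions, 87.8% had a peak in at least 3 of the 4 later HRG lists and 4.72% in none.

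**Figure D5:**
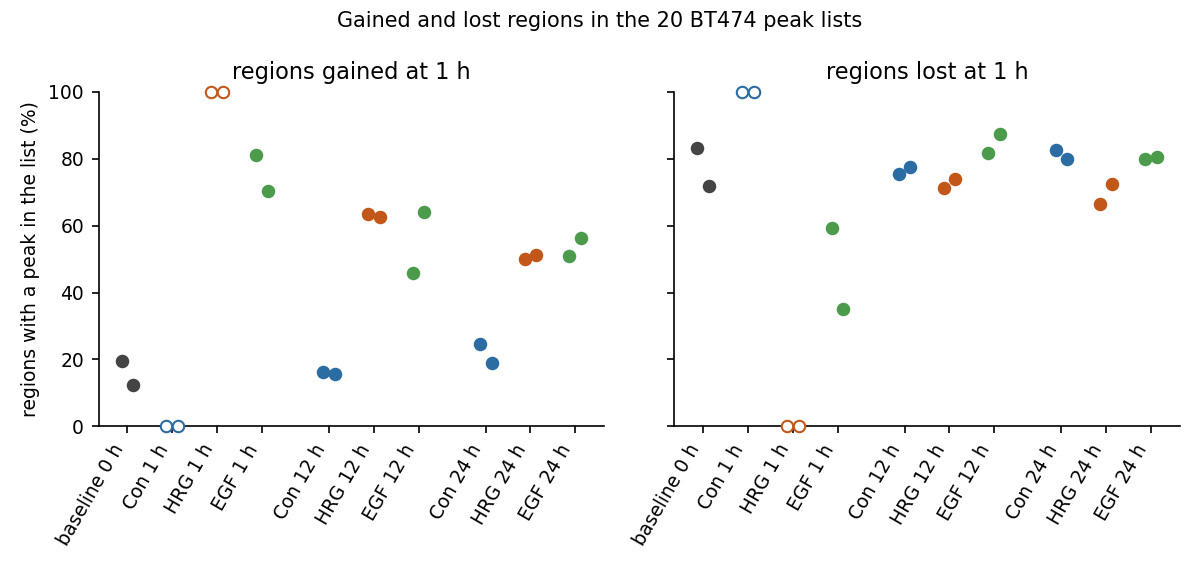
Percentage of the regions gained (left) or lost (right) at 1 h that had a peak in each of the 20 BT474 lists (vertical axis), by treatment and time (horizontal axis), with 1 point per list and open points for the lists that chose the regions. HRG lists of 12 and 24 h lie between 49.9% and 63.6% for gained regions, and Con lists between 15.7% and 24.7%.

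The EGF lists are set beside these, and they share the Con lists with the HRG comparison. At 1 h, 81.1% and 70.5% of the gained regions had a peak in the EGF lists, and 59.4% and 35.0% of the lost ones, against 91.1% and 86.4% of all 54672 regions. Both EGF lists had a peak in 1161 of the 1845 gained regions (62.9%), and neither had one in 209 (11.3%), a group of low rank with a median percentile of 7.39 and an AP-1 match in 28.7%. Of the 1828 lost regions, 498 (27.2%) had a peak in both EGF lists and 602 (32.9%) in neither. At 12 and 24 h the EGF lists held 54.2% ± 7.83 (SD, n = 4) of the gained regions and 82.4% ± 3.36 (SD, n = 4) of the lost ones, where the Con lists held 18.9% and 78.9%. The same EGF lists held 89.9% to 92.1% of all regions.

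In BT474R, whose lists held fewer of the regions in general, the gained regions were again held more often after HRG. They had a peak in 34.7% ± 9.47 (SD, n = 6) of cases in the HRG lists of 1, 12 and 24 h and 22.2% ± 12.8 (SD, n = 6) in the Con lists, a difference of 12.5 percentage points (exact permutation test within times, two-sided, p = 0.00926, the smallest possible, adjusted p = 0.037). At 1 h the BT474R values were 42.4% and 47.6% after HRG and 39.0% and 36.2% in Con, at 12 h 29.1% and 24.6% against 7.26% and 13.8%, and at 24 h 38.4% and 26.0% against 15.7% and 21.5%. The HRG lists were higher than the Con lists at each time. The BT474R EGF lists held 37.4% ± 10.1 (SD, n = 6) of the gained regions. Their difference from the same Con lists was 15.2 percentage points (exact permutation test within times, p = 0.00926, the smallest possible, adjusted p = 0.037). The 12 h Con lists also held fewer of all 54672 regions, at 52.8% and 63.2%, than the HRG lists of that time, at 69.6% and 66.0%. At 24 h these values were 65.3% and 69.8% in Con and 78.5% and 68.2% after HRG. The part of these shifts in the HRG difference was not tested. For the lost regions the BT474R means were 46.3% ± 8.55 and 41.9% ± 14.7 (SD, n = 6 each), a difference that did not pass the test (exact permutation test, p = 0.352).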

How the data were processed

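ATAC-seq peak lists of 40 libraries were used, 2 per group. Per the study's methods and the submitters' processing notes, the authors trimmed adapters (Trim Galore 0.6.6), mapped reads to GRCh38.p13 with BBMap and called peaks in each library with Genrich, removing mitochondrial and blacklisted reads. Genrich's options, including any shift of reads to the transposase cut sites, were not given in the sources used here. The value used was the peak score as deposited by the authors, which was at least 200 in every list. It depends on the depth of its library and was ranked within each list. Depth was unknown, and no column of read counts was used. The deposited p and q columns were left out. The study's own test on reads was not repeated.

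None of the deposited peaks reached past the end of a GRCh38 sequence. Genes came from GENCODE release 44. Groups came from the sample labels. The study states that treatments were made in duplicate, and p-values measure only the spread between these samples. Gained and lost regions and motif shares have no test. Rank percentiles in regions with a peak in all 4 lists were tested with limma 3.58.1 in R 4.3.3. Single values were tested by exact permutation, two-sided. Script calculations used Python 3.11.15, pandas 2.3.3, pysam 0.24.0 and statsmodels 0.14.6. The rank test was checked only on simulated data whose noise followed a smooth trend with rank. That check cannot decide how the calls hold under other variance settings.

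The members, gene lists and tests were chosen with earlier results of these data known. Named were the 10 gained and 10 lost regions of highest mean percentile, the 10 largest rank differences per direction, the 10 genes with most gained or lost regions, up to 6 genes per list and direction, and the promoters of 14 immediate-early genes. One of the gained regions of highest rank is not reported here. Alternatives were a score of at least 400, equal numbers of top peaks, peaks trimmed to 400 bp and 50% coverage. For the rank test they were normal scores, log2 of the score, a replicate block and a mean percentile of at least 10. A further fit used neither the variance trend nor the robust option. Others were regions merged from all lists, covered length, all sequences and promoters within 3 kb. A motif window of 50 bp and each library left out completed them.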

Additional observations from a re-analysis of the deposited data

Results flagged for a closer look

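The share of lost regions with a peak at 12 and 24 h had HRG minus Con differences of opposite sign in the 2 lines. It is singled out because its permutation p was below 0.05, out of 2 such tests. HRG minus Con was −7.82 percentage points in BT474 and 9.5 in BT474R, a difference between the lines of −17.3 percentage points (exact permutation test within line and time, two-sided, p = 0.0108, adjusted p = 0.0216 over 2 tests). The test exchanged HRG and Con labels within each line and time. Its p therefore refers to no HRG effect in either line, and it cannot decide whether the lines responded unequally. At 12 h the BT474R lists held 41.5% and 37.1% of the lost regions after HRG and 20.4% and 34.7% in Con, and at 24 h 55.9% and 38.5% against 36.2% and 43.8%, so the values of 24 h overlapped. The same BT474R Con lists held 52.8% and 63.2% of all 54672 regions at 12 h, against 69.6% and 66.0% after HRG, and 65.3% and 69.8% at 24 h, against 78.5% and 68.2% after HRG. The part of this shift over all regions in the difference was not tested. With the 1 h lists included, the BT474R difference for the lost regions was 4.44 percentage points (exact permutation test, p = 0.352). For the gained regions the lines differed by 23.0 percentage points, 37.9 against 15.0, which did not pass the test (exact permutation test, p = 0.202, adjusted p = 0.202).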

How the results depend on the processing

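Counts of gained and lost regions stayed within 1.5 times under equal numbers of peaks, trimmed peaks, 50% coverage and regions merged from all lists, from 1787 to 2104 gained and from 1762 to 2042 lost. With a score of at least 400 there were 1172 gained regions. With each library left out in turn, the gained count ranged from 2448 to 3324 and the lost count from 2418 to 3448. Of the 10 gained regions of highest rank, 9 or 10 stayed gained under each of these peak sets. The rank test was the least stable result. It called 5162 regions on the log2 score, 0 without the variance trend, and from 0 to 739 with each library left out, where the lone library of a group is assumed to vary like the other group. Except for the replicate block, the other settings gave 2990 to 3673 calls. The difference in the number of peaks ranged from −1420.5 to 588 and in the promoter share from −0.086 to 0.894 percentage points with each library left out, so neither has a stable sign. With a motif window of 50 bp, AP-1 matches were found in 28.2% of gained and 1.15% of lost regions. The AP-1 share of peaks and the shares of gained and lost regions in later lists kept their direction under every alternative run for them. The causes of these changes were not tested. Depth limits every count of absent peaks, since a peak below a score of 200 is not listed.

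Replicate numbers did not pair the libraries, with a correlation of −0.0391 between the deviations of equally numbered HRG and Con libraries. With a replicate block the limma rank test called 0 regions (9585 at an unadjusted p below 0.05). The block is balanced and cannot change the differences, so their direction was fixed in advance.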
